A study of Mus musculus with 8 samples.

Results

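Aminoacyl-tRNA synthetases are the enzymes that join each amino acid to its transfer RNA (tRNA), and their genes were taken from the raw count table by symbol. The rule found 40 of the 15288 genes in the table, and all 40 passed the expression filter. Of these, 20 encode synthetases of the cytosol, 17 have symbols ending in ars2 and encode mitochondrial synthetases, and 3 are accessory genes. The accessory genes are Aimp1 and Aimp2, which encode scaffold proteins of a complex of cytosolic synthetases, and Aarsd1, which encodes an alanyl-tRNA editing protein. No measured value entered the rule.

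The cells were of the mouse line IMCD, derived from the inner medullary collecting duct of the kidney. At 90% confluence they were kept for 12 h in DMEM free of FBS, either without added NaCl (control, 4 libraries, replicates 1 to 4) or with 100 mmol NaCl (4 libraries, replicates 5 to 8), the amount being quoted as the labels give it, without a volume. Total RNA was sequenced in bulk, with 35286796 to 47565623 counts per library, and the 40 genes took from 0.396 to 0.471% of them. The labels do not say whether replicates were separate cultures, so p-values measure the spread between these libraries, which may be technical, and fewer cells of a type and less RNA per cell cannot be told apart.

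Markers of the labelled cell type were mixed. All 14 collecting duct genes were in the table, but Aqp2, the vasopressin-regulated water channel, was at most 0.364 CPM (the count scaled to the total of its library, TMM factor included) and Cdh1, the epithelial cadherin, at most 0.709 CPM in any library, while Cdh16, the kidney cadherin, was at 549 CPM or more. The summed level of these 14 genes was 1240 to 1600 CPM in control and 2240 to 2510 CPM in NaCl libraries, with 5 genes higher and 1 lower past the test. The 4 fibroblast genes summed to 2740 to 3170 and 2390 to 2810 CPM, mostly from Col1a1, with 1 gene higher and 2 lower. Of the 4 proximal tubule genes, 3 were in the table at 162 to 205 and 155 to 177 CPM, nearly all Lrp2. The 3 intercalated cell genes, Slc34a1, Pecam1, Kdr and Adgre1 were not analysed here. The endothelial gene Cdh5 was at most 0.797 CPM. The leukocyte genes Ptprc and Cd68 summed to 5.95 to 7.19 CPM in control and 14.9 to 15.3 CPM in NaCl libraries. The part of these shifts in the results below was not tested.

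In animal cells the cytosol and the mitochondrion charge their tRNAs with largely separate enzymes, both encoded in the nucleus. Gars and Kars each serve both places, and Qars has no mitochondrial counterpart, because glutaminyl-tRNA is made there by an amidation route. Uncharged tRNA is sensed by the kinase GCN2, whose signal raises translation of the transcription factor ATF4, and ATF4 is known to act on many cytosolic synthetase genes. Synthetases fall into class I and class II by the fold of their catalytic domain. Several cytosolic enzymes are held with the proteins of Aimp1, Aimp2 and Eef1e1 in the multi-synthetase complex.

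Levels were compared first, per kilobase of the principal transcript. By group means, every cytosolic member of the rule stood above every mitochondrial one in both groups. With NaCl the margin was small, with Cars at 22.3 and Lars2 at 21.3 CPM per kilobase. Single libraries were not compared in this way. The cytosolic genes ran from 25.8 CPM per kilobase for Cars, the cysteine enzyme, to 127 for Kars, the lysine enzyme, in control cells, and from 22.3 to 109 with NaCl. The mitochondrial genes ran from 0.784 for Mars2, the methionine enzyme with an annotated transcript of 11294 bases, to 18.9 for Lars2, the leucine enzyme, in control cells, and from 0.833 to 21.3 with NaCl. Sars, Nars and Gars, the serine, asparagine and glycine enzymes, followed Kars at 120, 114 and 98.4 CPM per kilobase in control cells. These ranks depend on the transcript length used. The Kars transcript has 2008 bases, of which 1785 are coding. Those of Sars and Aars have 3570 and 5750 bases, of which 1536 and 2904 are coding. The plot of levels per transcript length shows the separation.

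**Figure D1:**
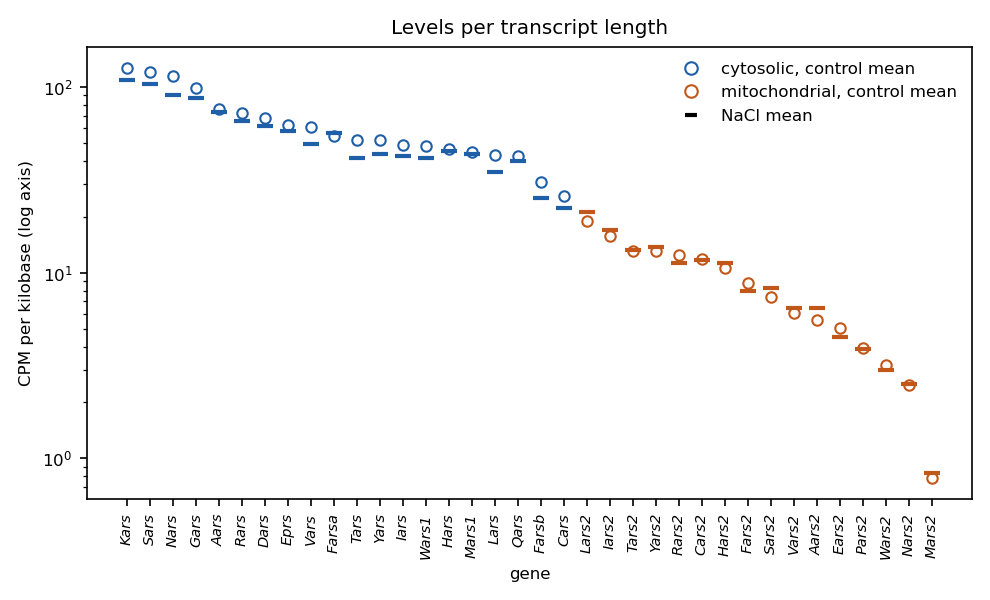
Mean level of 20 cytosolic and 16 mitochondrial genes in CPM per kilobase of its principal transcript (log axis), with open circles for the control mean and dashes for the NaCl mean (4 libraries each), in order of the control level. The cytosolic genes (from Cars up) lie at 25.8 or more in control cells and the mitochondrial genes (from Lars2 down) at 18.9 or less.

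With NaCl, most cytosolic synthetase genes fell, with changes of -7.48% (Eprs) to -20.8% (Nars), while no mitochondrial one fell past the test. In edgeR's quasi-likelihood test, with Benjamini-Hochberg adjustment over all 14024 genes tested and a threshold of 0.05 on the adjusted p-value, 15 of 20 cytosolic genes were lower, none was higher and 5 did not pass. Over all genes tested, 17.2% were called lower and 16.9% higher. Cytosolic synthetase genes are abundant, which makes small changes easier to call, and among the 4586 genes at least as abundant as the least abundant of them 23.3% were called lower. Of the 17 mitochondrial genes, none was called lower, 3 were called higher and 14 did not pass. The median log2 fold change (NaCl over control) was -0.205 for cytosolic genes, a change of -13.3%, and 0.082 for mitochondrial genes, a change of 5.88%, against 0.003 over all genes tested. The mitochondrial median was 0.031 and 0.032 without control replicates 3 and 4, and 0.040 and 0.041 without NaCl replicates 5 and 7. With a linear drift over the library number added to the fit, 4 cytosolic genes were called lower and the cytosolic median was -0.066. No member changed by 2-fold. These are descriptions of each class, and the difference between the classes was not tested as such.

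**Figure D2:**
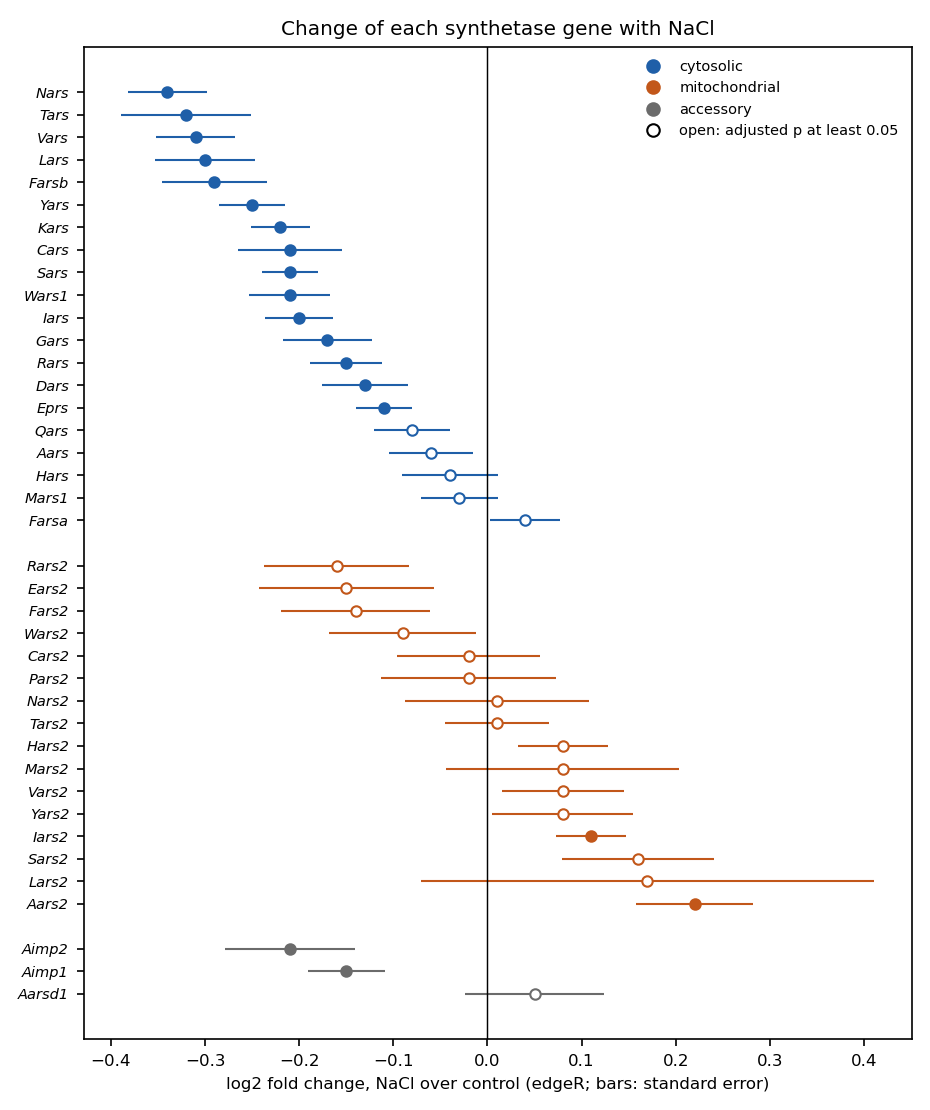
Log2 fold change of 39 of the 40 genes, NaCl over control, with its standard error, by class. Filled points passed an adjusted p-value of 0.05 in edgeR's test: 15 cytosolic genes and 2 accessory genes lie to the left of 0, and Aars2 and Iars2 to the right.

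The cytosolic genes with the largest falls encode enzymes for asparagine, threonine, valine and leucine. Nars (ENSMUSG00000024587, chromosome 18), the asparagine enzyme, was at 325.4, 332.4, 298.4 and 293.4 CPM in control replicates 1 to 4 and at 257.1, 249.4, 243.5 and 240.1 CPM in NaCl replicates 5 to 8. Every NaCl library was below every control library, and the log2 fold change was -0.34 (standard error 0.042, adjusted p = 1.08e-05 by edgeR), a fall of 20.8%. Tars (ENSMUSG00000022241, chr15:11382301-11399665 in GRCm38), the threonine enzyme, was at 227.1, 221.7, 198.2 and 181.3 CPM in control and 168.7, 172.0, 170.3 and 152.3 CPM in NaCl libraries. The groups again did not overlap, with control replicate 4 the closest to the NaCl libraries, and the log2 fold change was -0.32 (standard error 0.069, adjusted p = 0.0041 by edgeR).

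Vars (ENSMUSG00000007029, chr17:35000987-35016322), the valine enzyme, was at 274.2, 251.4, 249.6 and 234.4 CPM in control and 204.3, 208.9, 195.5 and 203.8 CPM in NaCl libraries, and fell by 0.31 on the log2 scale (standard error 0.042, adjusted p = 2.55e-05 by edgeR). Lars (ENSMUSG00000024493, chromosome 18), the leucine enzyme, was at 186.2, 176.2, 159.0 and 158.2 CPM in control and 144.3, 141.4, 137.0 and 128.4 CPM in NaCl libraries, with a log2 fold change of -0.30 (standard error 0.053, adjusted p = 0.000575 by edgeR). In both genes the NaCl libraries lay close together and below all controls, and the controls were spread, with replicates 1 and 2 above replicates 3 and 4 in Lars and replicate 1 above the rest in Vars.

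The enzyme for phenylalanine is built from 2 kinds of subunit, of which the beta subunit gene was called lower and the alpha subunit gene did not pass, a difference that was not tested as such. Farsb (ENSMUSG00000026245, chr1:78417975-78488897), the beta subunit, was at 67.57, 65.89, 56.13 and 60.02 CPM in control and 51.22, 53.52, 50.85 and 48.81 CPM in NaCl libraries, a log2 fold change of -0.29 (standard error 0.056, adjusted p = 0.000754 by edgeR). With the linear drift its value was -0.08 (edgeR adjusted p = 0.606). Its transcript shares 12.3% of its bases with Sgpp2 on the other strand, whose own log2 fold change was 0.03. Farsa, the alpha subunit, was at 99.74 ± 2.84 CPM in control and 102.8 ± 3.45 CPM in NaCl libraries (mean ± SD of 4 libraries each), with a log2 fold change of 0.04 (standard error 0.037, adjusted p = 0.411 by edgeR). The alpha subunit gene was the single cytosolic gene with a positive value.

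Yars (ENSMUSG00000028811, chr4:129189760-129219607), the tyrosine enzyme, was at 157.1, 150.7, 146.6 and 145.0 CPM in control and 124.5, 128.3, 127.3 and 124.5 CPM in NaCl libraries, a log2 fold change of -0.25 (standard error 0.035, adjusted p = 3.76e-05 by edgeR). Kars (ENSMUSG00000031948, chr8:111993443-112011323), which supplies lysine to both compartments, was at 262.5, 255.7, 250.2 and 252.1 CPM in control and 222.3, 214.5, 218.4 and 220.5 CPM in NaCl libraries. Its groups were separated by more than the spread within either, and its log2 fold change was -0.22 (standard error 0.031, adjusted p = 4.24e-05 by edgeR). Wars1 (ENSMUSG00000021266, chr12:108860030-108894174), the tryptophan enzyme and a gene known to be induced by interferon, was at 93.62, 86.40, 87.30 and 81.42 CPM in control and between 74.67 and 76.14 CPM in NaCl libraries, a log2 fold change of -0.21 (standard error 0.043, adjusted p = 0.000979 by edgeR). Gars (ENSMUSG00000029777, chr6:55038007-55079500), the other gene that serves both compartments, was at 247.4, 248.2, 220.9 and 219.9 CPM in control and 219.4, 208.9, 209.4 and 195.4 CPM in NaCl libraries. The groups were separated by less than 1 CPM, and the log2 fold change was -0.17 (standard error 0.047, adjusted p = 0.0113 by edgeR).

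The remaining called cytosolic genes had log2 fold changes between -0.21 and -0.11. They were Cars, Sars, Iars, Rars, Dars and Eprs, for cysteine, serine, isoleucine, arginine, aspartate and, in a single protein, glutamate and proline. Of the 15 called genes, 14 had every NaCl library below every control library, a pattern found in 16.9% of all genes tested. The exception was Dars, at 138.0 to 153.4 CPM in control and 124.7 to 143.8 CPM in NaCl libraries, with a log2 fold change of -0.13. Its edgeR adjusted p was 0.0408 and rose to between 0.0576 and 0.13 when control replicate 2, 3 or 4 or NaCl replicate 5, 6 or 7 was left out.

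Apart from Farsa, 4 cytosolic genes did not pass. Aars (ENSMUSG00000031960, chr8:111033144-111057664), the alanine enzyme, was at 474.5, 447.1, 418.5 and 412.3 CPM in control and 443.5, 427.9, 414.2 and 399.7 CPM in NaCl libraries. The groups overlapped in part, with control replicates 1 and 2 above all NaCl libraries, and the log2 fold change was -0.06 (standard error 0.045, adjusted p = 0.366 by edgeR). Its transcript shares 23.1% of its bases with Exosc6 on the same strand. Qars, Hars and Mars1, for glutamine, histidine and methionine, had log2 fold changes of -0.08, -0.04 and -0.03, with edgeR adjusted p-values of 0.156, 0.558 and 0.607, and Qars passed at 0.0477 without NaCl replicate 8.

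Called falls were counted in both structural classes. Among cytosolic genes, 7 of 9 of class I and 7 of 10 of class II were called lower, with median log2 fold changes of -0.212 and -0.19, where 17.2% of all genes and 23.3% of comparably abundant ones were lower, and Eprs holds a domain of each class. With the linear drift 1 gene of class I was lower (median -0.08), and 3 of class II were lower and 1 higher (median -0.036). Of the 11 genes of the multi-synthetase complex, 8 were called lower, none higher, and all 11 values were negative, with a median of -0.147. With the drift 5 of the 11 were lower, beside 12.6% of all genes, 9 values were negative and the median was -0.12. Both scaffold genes were among the 8. Aimp1 (ENSMUSG00000028029, chr3:132660499-132684370) was at 76.54, 78.55, 79.31 and 75.62 CPM in control and 65.54, 71.70, 69.56 and 72.15 CPM in NaCl libraries, with a log2 fold change of -0.15 (standard error 0.041, adjusted p = 0.00863 by edgeR).

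Aimp2 (ENSMUSG00000029610, chr5:143902704-143909847) was at 46.05, 47.56, 49.10 and 51.31 CPM in control and 36.32, 39.82, 45.59 and 46.31 CPM in NaCl libraries, where NaCl replicate 8 lay above control replicate 1. Its log2 fold change was -0.21 (standard error 0.069, adjusted p = 0.0315 by edgeR), and the adjusted p was between 0.0547 and 0.0967 without control replicate 2, 3 or 4 or NaCl replicate 5 or 6. Its transcript shares 41.2% of its bases with Eif2ak1 on the other strand, whose log2 fold change was 0.07, and reads of the pair cannot be told apart where strand was not recorded. Eef1e1, the third scaffold gene, was at 37.69 ± 2.61 and 34.15 ± 2.66 CPM (mean ± SD of 4 libraries each), with a log2 fold change of -0.14 (edgeR adjusted p = 0.0924). Aarsd1 was at 26.12 ± 1.58 and 27.01 ± 2.88 CPM (mean ± SD of 4 libraries each, edgeR adjusted p = 0.676), and 82.7% of its transcript is shared with the readthrough gene Gm27029.

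The promoters of several of these genes hold the letters that ATF4 is known to bind, and they are shown because many cytosolic synthetase genes are known as its targets. RefSeq promoter windows (GRCm38.p6, from 250 bases before the RefSeq start to 50 after it) were given for 30 of the 40 genes, 13 of them cytosolic and 14 mitochondrial. The core of the amino acid response element, TGATGNAA on either strand, was found in 5 of the 13 cytosolic genes and in none of the 14 mitochondrial or the 3 accessory ones. It was found in 1304 of all 32851 windows (3.97%). The lines below give 30 bases around 1 match in each of these 5 genes on the strand of the gene, 5′ to 3′, with the match in capitals.

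Aars, base 10 after the start: agcgggtcactTTTCATCAgagcgctctga

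Gars, 30 bases before the start: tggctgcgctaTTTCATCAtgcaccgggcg

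Iars, base 8 after the start: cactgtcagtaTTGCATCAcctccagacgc

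Tars, 15 bases before the start: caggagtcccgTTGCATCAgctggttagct

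Yars, base 4 after the start: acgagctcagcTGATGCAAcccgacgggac

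The positions are those of the first capital. The Aars window is chr8:111033840-111033869. The windows of Gars, Iars, Tars and Yars are chr6:55037960-55037989, chr13:49682126-49682155, chr15:11399655-11399684 (minus strand) and chr4:129189895-129189924. Gars, Iars, Tars and Yars were called lower and Aars was not. With a linear drift over the library number in the fit, Gars, Iars, Tars and Yars lost their calls and Aars was called higher. A match describes these letters and shows no binding.

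Of 13 cytosolic synthetase genes commonly reported as ATF4 targets, 11 were called lower and none higher, and the median was -0.212 on the log2 scale. With a linear drift over the library number in the fit, 1 of these 13 was called lower and 1 higher, and the median was -0.055. Of the 7 cytosolic genes not on that list, 4 were called lower, with a median of -0.127, and with the drift 3 were lower, with a median of -0.076. Genes of uncharged tRNA sensing and ATF4 output were measured beside them, and of 23 such genes 9 were lower, 3 were higher and 11 did not pass, beside 17.2% of all genes lower and 16.9% higher. Their median was -0.099. The balance of calls turned with the drift, under which 3 were lower and 9 higher, with a median of -0.008, beside 12.6% of all genes lower and 11.5% higher. The called genes at the ends of this list were Slc7a11, the cystine carrier, which fell from 8.257 ± 1.33 to 4.413 ± 0.696 CPM, and Nupr1, a stress-induced nuclear protein, which rose from 160.0 ± 2.58 to 279.3 ± 13.3 CPM (mean ± SD of 4 libraries each). Atf4 itself was at 231.8 ± 9.48 and 216.4 ± 3.20 CPM (mean ± SD of 4 libraries each), a log2 fold change of -0.10 (edgeR adjusted p = 0.0367) that was -0.01 with the drift (edgeR adjusted p = 0.949). Slc7a11 lost its call with the drift (-0.39, edgeR adjusted p = 0.262), and Nupr1 kept it (0.78, edgeR adjusted p = 1.01e-11). Asns, the asparagine synthetase gene and a standard ATF4 target chosen here after its values were seen, fell from 115.9 ± 9.34 to 79.32 ± 5.17 CPM (mean ± SD of 4 libraries each, log2 fold change -0.55, edgeR adjusted p = 9.24e-06), and was at -0.27 with the drift (edgeR adjusted p = 0.00844). Eif2ak4, which encodes GCN2, had a log2 fold change of -0.02 (edgeR adjusted p = 0.805), and Gcn1, which encodes its activator, one of 0.14 (edgeR adjusted p = 0.00262).

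Among the mitochondrial synthetase genes the 3 called higher were 3 of 17, near the share of all genes called higher. Aars2 (ENSMUSG00000023938, chr17:45506841-45520843), the alanine enzyme, was at 18.17, 19.13, 17.93 and 18.85 CPM in control and 21.01, 22.91, 21.52 and 20.82 CPM in NaCl libraries. All NaCl libraries lay above all controls, and the gene rose by 16.5%, a log2 fold change of 0.22 (standard error 0.062, adjusted p = 0.0112 by edgeR). Aars2 shares no sequence with other annotated genes at the settings used.

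Iars2 (ENSMUSG00000026618, chr1:185284726-185329396), the isoleucine enzyme, was at 86.12, 86.52, 85.81 and 85.79 CPM in control and 91.17, 89.37, 97.19 and 93.02 CPM in NaCl libraries, a log2 fold change of 0.11 (standard error 0.037, adjusted p = 0.0327 by edgeR). Controls lay within 1 CPM of each other, and the adjusted p was between 0.0567 and 0.123 without any of the 4 controls, NaCl replicate 7 or NaCl replicate 8. Its transcript shares 37.2% of its bases with Rab3gap2 on the other strand, whose log2 fold change was -0.01. In all, 3 mitochondrial members had every NaCl library above every control library, a pattern found in 16.5% of all genes tested.

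The other 14 mitochondrial genes overlapped between the groups, with log2 fold changes between -0.16 and 0.17. Of the whole class 6 values were negative and 11 positive, with Rars2, Ears2 and Fars2 at -0.16, -0.15 and -0.14 and Sars2 and Lars2 at 0.16 and 0.17. The median standard error was 0.077 over the mitochondrial class and 0.042 over the cytosolic class, and the lowest count of a member in a library was 309 (Mars2). Rars2, the arginine enzyme, had a log2 fold change of -0.16 (edgeR adjusted p = 0.12) and passed at 0.0479 without NaCl replicate 8.

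Lars2 stood apart in single libraries. It was at 63.55, 63.16, 108.3 and 59.80 CPM in control and 86.63, 77.68, 101.2 and 66.70 CPM in NaCl libraries, high in control replicate 3 and NaCl replicate 7, and its log2 fold change of 0.17 had a standard error of 0.241 (edgeR adjusted p = 0.64). Gm42418, a long noncoding RNA gene, was high in the same libraries, at 1599, 1396, 2775 and 1710 CPM in control and 1878, 1890, 2434 and 1690 CPM in NaCl libraries. Both genes were picked after these values were seen, and the part of Gm42418 in the Lars2 values was not tested. Without Lars2 the summed mitochondrial level was 371.2 ± 5.06 CPM in control and 386.1 ± 4.24 CPM in NaCl libraries (mean ± SD of 4 libraries each), 4.01% higher.

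The summed level of the 20 cytosolic genes was 4115, 4030, 3816 and 3793 CPM in control replicates 1 to 4 and 3534, 3478, 3457 and 3410 CPM in NaCl replicates 5 to 8. The mean was 3939 ± 159 CPM in control and 3470 ± 51.7 CPM in NaCl libraries (mean ± SD of 4 libraries each), 11.9% lower, and the groups did not overlap. The controls were more spread than the NaCl libraries, with replicates 1 and 2 above replicates 3 and 4 in 15 of the 20 cytosolic genes. That order was found in 24.9% of all genes tested and in 4 of the 17 mitochondrial genes. NaCl replicates 5 and 6 lay above replicates 7 and 8 in 7 of the 20 cytosolic genes (35%), against 20.6% of all genes tested and 3 of the 17 mitochondrial genes.

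**Figure D3:**
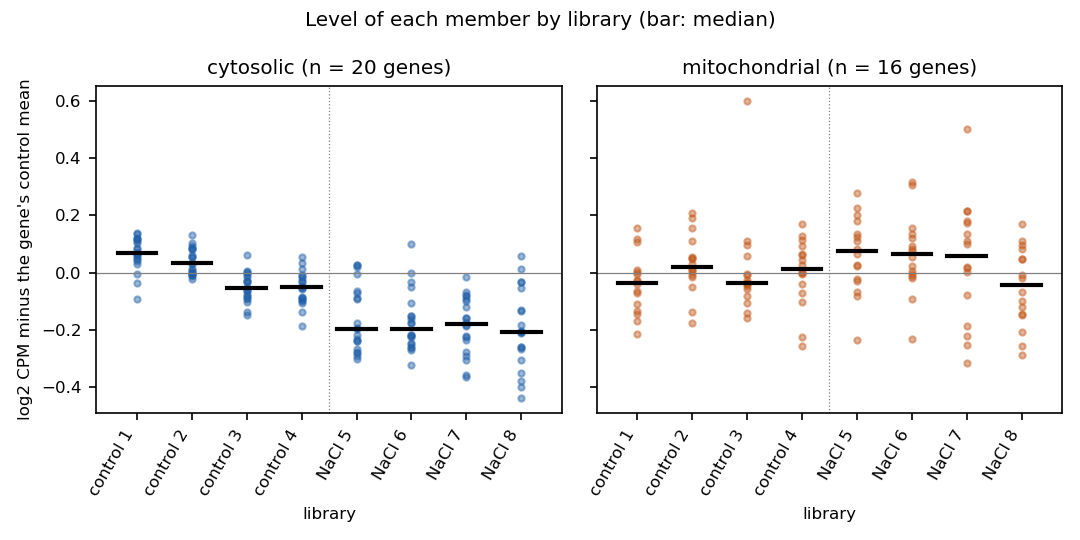
Log2 CPM of 20 cytosolic (left) and 16 mitochondrial (right) synthetase genes in each library, minus the gene's mean over the 4 controls; bars are medians over genes. Cytosolic medians lie below 0 in all NaCl libraries, control replicates 1 and 2 lie above control replicates 3 and 4, and the 2 high points at right are Lars2 in control replicate 3 and NaCl replicate 7.

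For 14 amino acids the rule found a single cytosolic and a single mitochondrial gene, which form a pair. Threonine also has the cytosolic gene Tarsl2, which lies outside the rule. The ratio of a pair in a library does not depend on how libraries are scaled. The ratio was lower with NaCl in 13 of 14 pairs, and in 8 pairs every NaCl library was below every control library. These 8 included the pairs for alanine, isoleucine, asparagine, serine, threonine, valine and tyrosine. Of single genes tested, 16.9% had every NaCl library below every control library, but no such share was computed for ratios. Whether 8 of 14 is unusual for ratios was not tested. The median change of the log2 ratio was -0.317, a ratio lower by 19.7%, and the range was from -0.50 to 0.02. Relative to each pair's control mean, the control libraries had medians over pairs of 0.119, 0.028, -0.009 and -0.052 (replicates 1 to 4), and the NaCl libraries had medians of -0.264, -0.287, -0.295 and -0.301 (replicates 5 to 8). With a linear drift over the library number, fitted to each pair's log2 ratio by least squares and added after seeing the data, the median change was -0.129, 12 of 14 values were negative and the range was from -0.55 to 0.26.

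The Aars to Aars2 log2 ratio was 4.71, 4.55, 4.54 and 4.45 in control and 4.4, 4.22, 4.27 and 4.26 in NaCl libraries, a change of -0.27, while Aars alone changed by -0.06 and Aars2 by 0.22 on the log2 scale. The arginine pair was the exception, with log2 ratios of 2.70 ± 0.11 for Rars to Rars2 in control and 2.72 ± 0.17 in NaCl libraries (mean ± SD of 4 libraries each). The lowest change was that of the leucine pair (-0.50), whose groups overlapped and in which Lars2 was high in control replicate 3. The histidine pair lies head to head, with annotated starts of Hars and Hars2 197 bases apart on opposite strands, and its log2 ratio was 1.38 ± 0.16 in control and 1.26 ± 0.052 in NaCl libraries (mean ± SD of 4 libraries each), with overlap.

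**Figure D4:**
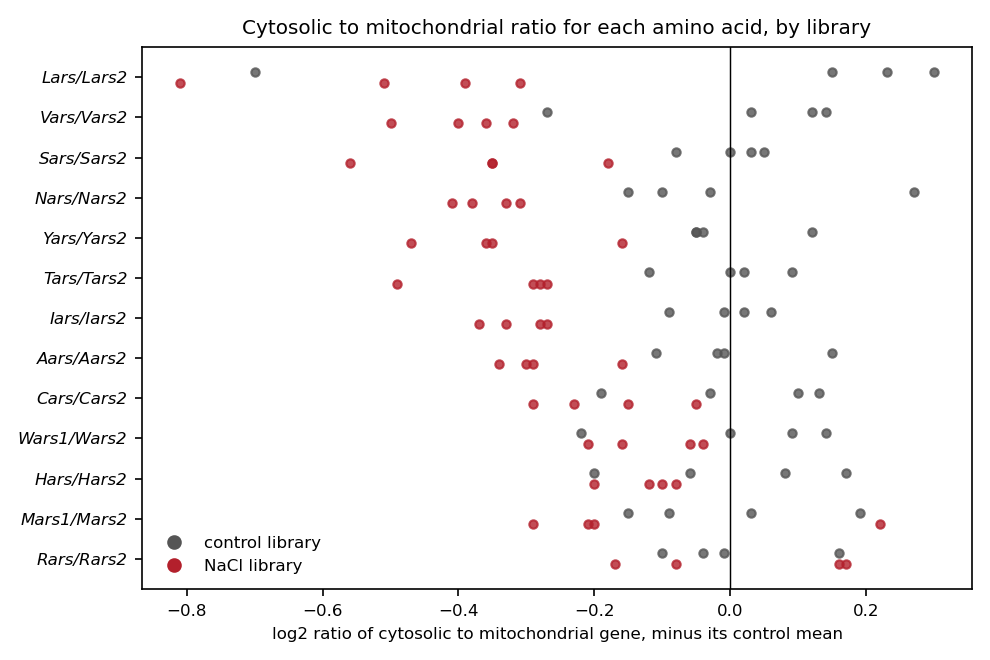
Log2 ratio of the cytosolic to the mitochondrial gene for 13 of the 14 amino acids in each library, minus the pair's control mean, with control libraries in grey and NaCl libraries in red. In 7 of these pairs all red points lie left of all grey points; the arginine pair at the bottom shows no shift, and Lars to Lars2 at the top is spread by Lars2.

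Phenylalanine, glutamate and proline have no single pair. The log2 ratio of Farsb to Fars2 changed by -0.15 and that of Farsa to Fars2 by 0.18. Eprs set against Ears2 and Pars2 gave changes of 0.04 and -0.09. The groups overlapped in all of these.

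The fall of the cytosolic genes depended on how the library number was treated. Controls carry the numbers 1 to 4 and NaCl libraries 5 to 8, so a steady change along the number runs in part with the group. A linear drift takes the same straight slope within both groups and across the step between them. Whether the values of each gene follow such a line was not tested. With the number as a linear drift over all 8 libraries in the edgeR fit, 4 cytosolic genes were called lower (Sars, Kars, Dars and Qars) and 1 higher (Aars), while 12.6% of all genes were called lower and 11.5% higher. The median log2 fold change of the cytosolic genes was then -0.066, with a median standard error of 0.063. Sars, the serine enzyme, singled out after its values were seen, was at 425.8, 425.4, 426.9 and 430.8 CPM in control and 367.1, 360.0, 378.7 and 371.0 CPM in NaCl libraries, close together within each group, and kept its call, with log2 fold changes of -0.21 without the drift (edgeR adjusted p = 4.64e-05) and -0.25 with it (edgeR adjusted p = 0.00053).

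Kars also kept its value under the drift, at -0.18 (edgeR adjusted p = 0.0192), and Dars was larger, at -0.37 (edgeR adjusted p = 2.17e-05). Tars and Lars, with control replicates 1 and 2 above 3 and 4, were at 0.00 and -0.02 with edgeR adjusted p-values of 0.974 and 0.884, and Nars was at -0.15 (0.0616). Aars turned from -0.06 to 0.18 (edgeR adjusted p = 0.00833). Aimp1 and Aimp2 stayed lower (-0.22 and -0.56, edgeR adjusted p = 0.0405 and 2.37e-05), and Aarsd1 was called higher (0.38, edgeR adjusted p = 0.0131). None of the 3 mitochondrial genes called without the drift was called with it. Mars2, not called without the drift, was called higher (0.65, SE 0.197, edgeR adjusted p = 0.0132), and Aars2 and Iars2 were at 0.24 and 0.07 with adjusted p-values of 0.205 and 0.533. A fit with the number centred inside each group gave all 40 genes the same call as the group alone. Centring leaves the number with the same mean in both groups, so this fit could barely move the fold changes. It does not bear on a drift across the groups. Whether the number stands for an order of handling is not given in the labels.

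**Figure D5:**
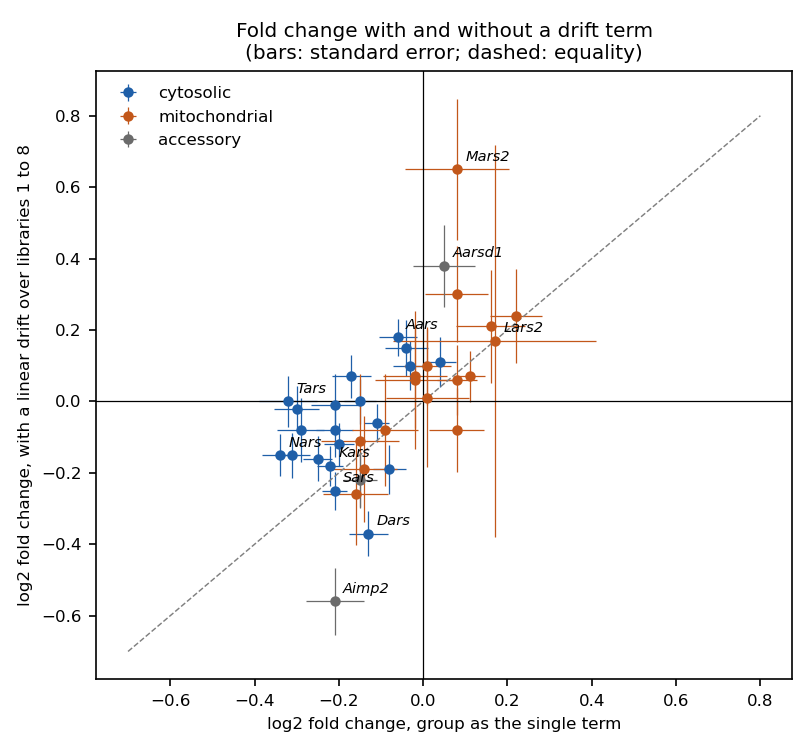
Log2 fold change of 39 of the 40 genes with the group as the single term (x axis) and with a linear drift over libraries 1 to 8 added (y axis), with standard errors; the dashed line marks equal values. Sars and Kars lie near the line, Nars and Tars move towards 0, and Dars and Aimp2 move away from it.

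Further genes of tRNA charging and delivery were measured from a list outside the rule. Of 20 such genes, 6 were lower, 1 was higher and 13 did not pass, where 17.2% of all genes were lower and 16.9% higher, and their log2 fold changes had a median of -0.029. Tarsl2, a threonyl-tRNA synthetase of the cytosol resembling Tars, had the lowest value and fell from 17.07 ± 0.667 to 12.40 ± 1.05 CPM (mean ± SD of 4 libraries each), a log2 fold change of -0.46 (standard error 0.077, adjusted p = 0.000206 by edgeR). The highest was Mtfmt, which formylates the mitochondrial initiator tRNA, at 17.70 ± 0.704 and 20.23 ± 0.687 CPM (mean ± SD of 4 libraries each, log2 fold change 0.19, edgeR adjusted p = 0.0254). The other genes called lower included Gatc, of the mitochondrial amidation route, and Eef1b2, Eef1d and Eef1g, the subunits of the exchange factor that recharges the elongation factor eEF1A with GTP. Eef1g fell from 749.2 ± 15.7 to 612.2 ± 14 CPM (mean ± SD of 4 libraries each), and Eef1a1 was at 9489 ± 343 and 10050 ± 326 CPM (mean ± SD of 4 libraries each, edgeR adjusted p = 0.0772). These were named after their values were seen.

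Of 18 genes of tRNA maturation, 2 were lower and 1 was higher, no more than the same shares of all genes. The other 15 did not pass, and the median of their log2 fold changes was -0.085. Trnt1, which adds the terminal CCA to which amino acids are joined, fell from 108.4 ± 2.68 to 91.82 ± 2.26 CPM (mean ± SD of 4 libraries each), a log2 fold change of -0.24 (standard error 0.036, adjusted p = 6.87e-05 by edgeR). Pop5, a subunit of ribonuclease P, rose from 23.62 ± 2.66 to 32.37 ± 2.39 CPM (mean ± SD of 4 libraries each), a log2 fold change of 0.45 (standard error 0.076, adjusted p = 0.000254 by edgeR). With the linear drift Trnt1 was at -0.21 (edgeR adjusted p = 0.0209) and Pop5 at 0.81 (edgeR adjusted p = 1.32e-06), both still called. Tarsl2, Mtfmt and Gatc lost their calls with it, at -0.31, 0.14 and -0.06 (edgeR adjusted p = 0.139, 0.499 and 0.802), and Eef1b2, Eef1d and Eef1g kept theirs. Over the whole lists, 4 genes of charging and delivery were then lower and 2 higher, and 1 gene of maturation was lower and 2 higher, where 12.6% of all genes were lower and 11.5% higher.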

How the data were processed

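The authors deposited whole-number read counts for 15288 Ensembl genes in 8 libraries, and the main tests started from these. Their second deposited table gives a normalized signal, in which each library's counts are scaled by its own factor (0.8643 to 1.145). The submitters' processing notes name mm10, Trim Galore 0.6.7, STAR and DESeq2 1.34.0. The counting program, strandedness and annotation are not given in the sources used here, so antisense reads could not be told apart.

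Members and lists were chosen with earlier results of these data known. The tests used edgeR 4.0.16 under R 4.3.3, with filterByExpr (minimum count 10, leaving 14024 genes), TMM scaling, and robust quasi-likelihood F tests of NaCl against control, adjusted over all genes tested. The standard error is the absolute log2 fold change divided by the square root of F. CPM values use TMM-scaled totals. Values per library are given for up to 8 called genes of each class with the largest absolute change, called accessory genes, and Gars, Kars, Wars1 and Aars. Each further list is given by its counts and its called genes of highest and lowest fold change. Alternatives used DESeq2 1.42.0, limma 3.58.1, other scalings, filters and thresholds, the library number, and each library left out. On simulated counts for 13876 genes, 62.6% of 99 genes changed by 1.25-fold and 86% of 100 changed by 2-fold were recovered, and 8.64% of 162 calls were false. Gene models were GENCODE M21 on GRCm38 (mm10), with the APPRIS principal transcript for lengths. Shared sequence was measured with blastn 2.17.0 (at least 75 bases at 98% identity) against all annotated transcripts. Promoter sequences were RefSeq's. Promoters of Cars, Hars, Hars2, Lars, Nars, Pars2, Rars, Vars and Wars1 were not used here. Some results on single genes and windows are not reported here, and figures leave 1 gene out.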

Additional observations from a re-analysis of the deposited data

Results flagged for a closer look

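Among 80 groups of 4 values (40 genes in 2 groups), 5 had a library far from the other 3, where chance gives about 4, and 4 of the 5 follow. Lars2 was at 108.3 CPM in control replicate 3 against 59.80 to 63.55 CPM in the other controls. Tars was low in NaCl replicate 8, at 152.3 CPM, where the other NaCl libraries held 168.7 to 172.0 CPM. Mars2 was low in that library too, at 7.36 CPM beside 9.79 to 10.27 CPM. Eprs was at 312.6 CPM in control replicate 1 against 303.1 to 304.0 CPM.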

How the results depend on the processing

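The calls and directions of all 40 genes were the same under median-of-ratios size factors, library totals alone, no filter on expression, a filter of 10 counts in each library, DESeq2, limma-voom, and limma on the deposited normalized values. They were also the same with the library number centred within groups, a fit that could barely move the fold changes. At a threshold of 0.01, 3145 genes were called in place of 4789, and 1 mitochondrial gene was higher in place of 3. With a linear drift over libraries 1 to 8, 4 cytosolic genes were lower in place of 15 and 1 higher in place of 0, 1 mitochondrial gene was higher in place of 3, the cytosolic median was -0.066 in place of -0.205, and the median pair ratio, by a fit added after seeing the data, was -0.129 in place of -0.317. Signs turned under the drift for Tars (0.00), Gars (0.07), Aars (0.18), Hars (0.15), Mars1 (0.10), Cars2 (0.07), Pars2 (0.06) and Vars2 (-0.08). No paired analysis was run, because the labels do not say whether any control and NaCl libraries belong together.

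Leaving out each library gave 4071 to 4634 called genes, 14 to 16 cytosolic genes lower and 0 higher, 0 to 1 mitochondrial genes lower (Rars2 without NaCl replicate 8) and 2 to 3 higher. The medians ran from -0.214 to -0.18 (cytosolic) and from 0.031 to 0.079 (mitochondrial), the latter moved by over 1.5 times without control replicate 3 (0.031) or 4 (0.032) or NaCl replicate 5 (0.040) or 7 (0.041), and the median pair ratio from -0.33 to -0.273. Of 20 called genes, 17 were called in all 8 of these fits. Signs turned in some of these fits for genes near 0, with ranges of -0.02 to 0.10 for Aarsd1, -0.07 to 0.04 for Cars2, -0.06 to 0.02 for Pars2, -0.06 to 0.08 for Nars2 and -0.01 to 0.05 for Tars2. Leaving Lars2 out, an alternative chosen after seeing the data, gave a mitochondrial median of 0.048 in place of 0.082. With Gars and Kars left out 13 of 18 cytosolic genes were lower, and with the accessory genes added 17 of 23. The lowest count of a member in a library was 309 (Mars2), and no alternative depth was run.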
